A study of Mus musculus with 7 samples.

Results

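The proteins of the cytosolic ribosome were followed here at the mRNA level in mouse liver. The genes were taken from the table of all genes by name: a mouse symbol beginning with Rpl, Rps or Rplp and a digit, without the -ps suffix of annotated pseudogenes, and not one of the S6 kinases, whose symbols begin the same way. Of 37620 genes, 32897 of them with a symbol, 287 matched the name pattern, 187 of these carried the -ps suffix and 10 were S6 kinases, which left 90 genes. They comprise 42 core genes of the large subunit, 3 genes of the P-stalk of the large subunit, 30 core genes of the small subunit, 14 paralogs and near-identical copies, and Rps19bp1, which matches the pattern but encodes a binding protein and not a ribosomal protein. Rpl24 was not analysed here. Of the 90 genes, 87 passed the filter on low counts. The other 3 are paralogs that are almost silent in liver: Rpl3l, with 7 counts over the 7 libraries, Rpl39l, with 2, and Rpl10l, with 0 of 78303580 counts, which allows a level of up to 0.0383 CPM (counts scaled to library size).

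Each ribosome holds 1 copy of nearly every core protein, arranged on a large subunit that joins amino acids and a small subunit that reads the mRNA. The P-stalk is the arm of the large subunit that recruits elongation factors. Vertebrate ribosomal protein mRNAs are short, abundant and start with a run of pyrimidines, the terminal oligopyrimidine (TOP) tract, through which the growth kinase complex mTORC1 and the RNA-binding protein Larp1 control their translation and stability. Hepatocytes, which make up most of the liver's mass, translate plasma proteins in bulk.

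RNA was sequenced from whole liver of C57BL/6 mice that had all eaten a Western diet for 30 weeks. By label, 4 libraries belong to mice whose total bile acids were high (H-TBA) and 3 to mice whose total bile acids were low (L-TBA). Diet, strain and tissue were the same in both groups. The sources used here do not give the age of the mice, how the difference in bile acids arose, or whether each library came from its own mouse. A p-value therefore reflects how far these libraries vary, which may be technical. The comparison asks which ribosomal protein mRNAs differ with bile acid level on 1 diet, whether the subunits differ, and how the differences lie along gene length.

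Libraries held 9996990 to 12152613 counts. The 90 genes took 1.30% to 1.64% of the counts in H-TBA and 1.25% to 1.32% in L-TBA. All 8 hepatocyte markers were detected, at a summed level of 55570 to 63500 CPM in H-TBA and 60250 to 69950 in L-TBA. The 8 bile duct cell markers (Krt7, Krt19, Epcam, Sox9, Spp1, Cldn4 and Cftr among them) all rose in H-TBA, with a summed level of 952 to 1842 CPM against 456 to 719. In liver homogenate, fewer cells of a type and less RNA per cell cannot be told apart. The part that the larger bile duct signal had in the values below was not tested.

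The coding sequence of Rpl39, the large subunit core mRNA with the largest fall past the test, is shown first because its shortness recurs in the results. It is the longest coding sequence of this gene in GENCODE vM21 (GRCm38), from start to stop codon, with no base singled out by capitals.
Rpl39: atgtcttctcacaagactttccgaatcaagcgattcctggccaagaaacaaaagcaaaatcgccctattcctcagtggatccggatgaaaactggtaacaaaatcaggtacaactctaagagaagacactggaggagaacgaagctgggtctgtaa

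Of the 87 tested genes, 2 rose and 11 fell in H-TBA. The 2 that rose encode core proteins of either subunit, Rps14 and Rpl3. Of the 11 that fell, 7 encode core proteins (Rps29, Rpl39, Rps28, Rpl38, Rps27, Rpl35a and Rpl37) and 4 are paralogs or copies (Rps27l, Rpl37rt, Rpl36al and Rps27rt). These counts come from the quasi-likelihood test of edgeR at a Benjamini-Hochberg adjusted p of 0.05 over all 15249 tested genes, of which 13.1% rose and 10.7% fell. In either direction, 14.9% of the ribosomal protein genes and 23.9% of all genes passed. Rps29, Rpl39, Rps27l and Rpl37rt did so in all 19 alternative fits. The number that rose went from 2 to 8 without the library H-TBA 1, where Rpl12, Rpl18, Rps3 and Rps4x were among those that joined, and to 1, Rps14, without any other single library. The number that fell went from 11 to 7 without L-TBA 1. The split also followed the scaling. With library totals in place of TMM, which moved the median log2 fold change of all genes from 0.00 to 0.16, 16 rose and only Rps29, Rpl39, Rps27l and Rpl37rt fell. With a correction for GC content 1 rose and 22 fell. With one for exon length 1 rose and 16 fell, and with one for mRNA length 5 rose and 5 fell. Every H-TBA library lay above every L-TBA library for 15 of the 87 genes (17.2%, beside 17.2% over all genes), and below for 22 (25.3%, beside 16.3% over all genes). Levels below are CPM scaled by TMM, a library scaling that assumes most genes are unchanged.

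**Figure D1:**
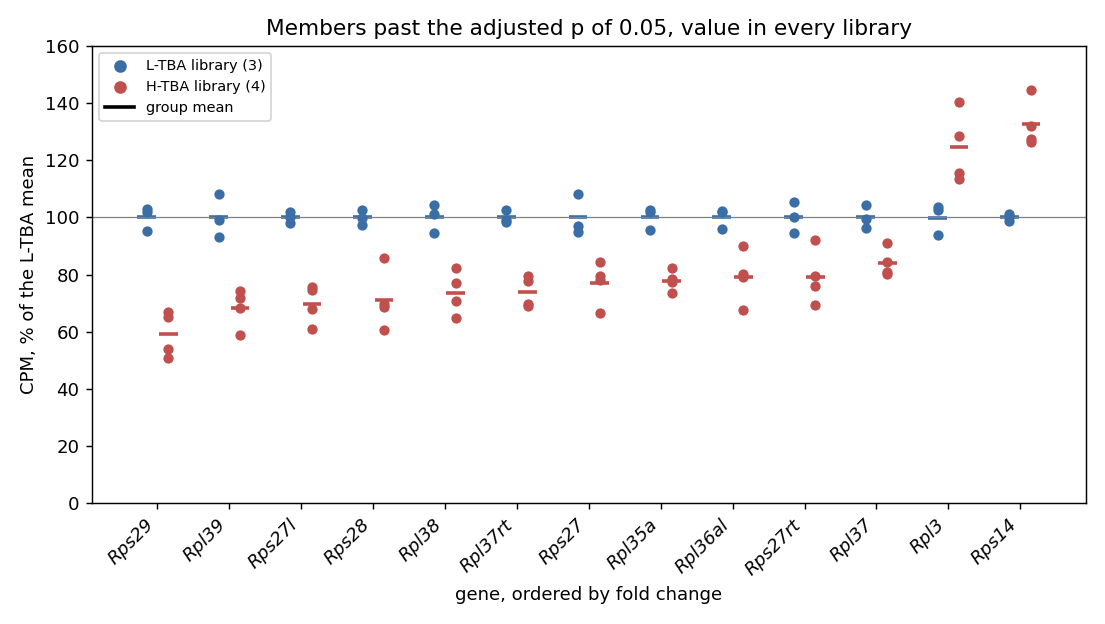
Level in every library of the 13 ribosomal protein genes past an adjusted p of 0.05, as a percentage of the L-TBA mean CPM; points are libraries (4 H-TBA, 3 L-TBA), bars are group means and genes are ordered by fold change. Rps29 has the lowest H-TBA points and Rps14 the highest, and the 2 groups do not overlap for any of the 13 genes. These genes were selected by the test on the same libraries, so the lack of overlap is no separate evidence. Over all tested genes, every H-TBA library lay above every L-TBA library for 17.2% and below for 16.3%.

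In the small subunit, Rps29, a zinc-binding protein near the mRNA exit, had the largest fall. Its level was 83.3, 69.1, 85.8 and 65.1 CPM in the H-TBA libraries 1 to 4 and 131, 122 and 132 CPM in the L-TBA libraries 1 to 3. All H-TBA libraries lay well below the L-TBA libraries, with means of 75.8 ± 10.2 (SD, n = 4) and 128 ± 5.34 CPM (SD, n = 3). The log2 fold change, H-TBA over L-TBA, was -0.76 (SE 0.10, adjusted p = 0.000681 by the edgeR test). Rps28, which also lies near the mRNA exit, had 57.0, 57.9, 71.2 and 50.3 CPM in H-TBA against 85.2, 81.0 and 83.0 in L-TBA. Its log2 fold change was -0.49 (SE 0.11, adjusted p = 0.00697). Rps27, another zinc-binding protein, had 81.0, 96.5, 103 and 94.8 CPM in H-TBA and 132, 115 and 118 in L-TBA, and its lowest L-TBA library stood only a little above its highest H-TBA library. Its log2 fold change of -0.37 (SE 0.10) had an adjusted p of 0.0158, which became 0.0749 without L-TBA 1.

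Rps14, a protein of the platform of the small subunit, was the ribosomal protein gene with the largest rise. It had 425, 443, 486 and 428 CPM in H-TBA and 332, 336 and 340 in L-TBA. The 3 L-TBA libraries lay close together and every H-TBA library was above them. The log2 fold change was 0.41 (SE 0.09, adjusted p = 0.00802), and Rps14 kept its call when any single library was left out. Rps3 (0.23) and Rps4x (0.22) were among the next highest values in the small subunit, with adjusted p of 0.126 and 0.113 in the edgeR test. The other low value belonged to Rps21 (-0.21, adjusted p = 0.171).

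In the large subunit, Rpl39, a protein of the tunnel through which the new peptide leaves, fell most. It had 65.9, 60.4, 63.7 and 52.0 CPM in H-TBA against 87.6, 82.4 and 95.7 in L-TBA, and the groups were well apart. The log2 fold change was -0.55 (SE 0.10, adjusted p = 0.00218). Rpl38, known in mouse embryos for its part in the translation of Hox mRNAs, had 66.0, 60.4, 70.5 and 55.4 CPM in H-TBA and 89.3, 80.9 and 86.4 in L-TBA. Its log2 fold change was -0.44 (SE 0.09, adjusted p = 0.00603). Rpl35a, one of the genes mutated in Diamond-Blackfan anaemia, had 57.0, 53.5, 54.2 and 51.0 CPM in H-TBA and 70.9, 66.2 and 70.4 in L-TBA, a narrow range within each group. It fell by 0.36 on the log2 scale (SE 0.07, adjusted p = 0.00507). Rpl37, a zinc-binding protein, fell by 0.25 (SE 0.08, adjusted p = 0.0421), from a mean of 105 ± 4.21 to 88.3 ± 5.26 CPM. That call was lost when any library other than H-TBA 3 was left out (adjusted p 0.061 to 0.146).

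Rpl3, which lies next to the site where peptide bonds form, was the only large subunit gene that rose. It had 225, 254, 278 and 228 CPM in H-TBA and 185, 205 and 203 in L-TBA, so the lowest H-TBA library stood close to the highest L-TBA library. The log2 fold change was 0.32 (SE 0.10, adjusted p = 0.04). Leaving out any library other than H-TBA 1 moved the adjusted p to between 0.0517 and 0.162. Rpl12 (0.25) and Rpl18 (0.21) were among the next highest values, with adjusted p of 0.0847 and 0.0736 in the edgeR test. Rpl29 had the lowest log2 fold change of the large subunit, -0.70, and the widest error of all core genes (SE 0.34, adjusted p = 0.167). Its libraries ran from 14.6 to 34.0 CPM in H-TBA and from 20.9 to 55.5 in L-TBA, and the groups overlapped.

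The 3 proteins of the P-stalk did not pass the test. Rplp0, the base of the stalk, had a log2 fold change of 0.20 (SE 0.09, adjusted p = 0.128), and its 350 to 406 CPM in H-TBA did not overlap with the 325 to 330 CPM in L-TBA. Its partners Rplp1 and Rplp2, which bind to it as pairs, had -0.04 (SE 0.09, adjusted p = 0.769) and -0.25 (SE 0.09, adjusted p = 0.0738). Rplp0 has the longest coding sequence of the 3, 951 bases against 342 and 345.

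The medians of large and small subunit genes differed by less than the spread between libraries. Of 42 large subunit core genes, 1 rose and 4 fell, with a median log2 fold change of -0.03. Of 30 small subunit core genes, 1 rose and 3 fell, with a median of -0.03. The median over all tested genes was 0.00. The difference between the subunit medians was -0.002, against a within-group SD of 0.021 for the same difference in single libraries. In library totals without TMM the median over all genes moved to 0.16, and both subunit medians to 0.13. With the mRNA length correction they were 0.05 and 0.06, where the median over all genes was -0.11. Without H-TBA 4 they were 0.0136 and 0.00527. The sign of the subunit medians therefore depended on the scaling, on the length correction and on 1 library. Summed over its genes, the large subunit with its stalk had 7751 ± 431 CPM in H-TBA (SD, n = 4) and 7753 ± 97.0 in L-TBA (SD, n = 3), and the small subunit 5472 ± 366 and 5332 ± 64.1.

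The ratio of large to small subunit counts was 1.449, 1.418, 1.391 and 1.411 in H-TBA and 1.459, 1.454 and 1.450 in L-TBA. All H-TBA libraries were lower, H-TBA 1 only just. The means differed by -0.037. Without the 3 most abundant genes of each subunit, Rps14 among them, the ratio was 1.475 to 1.523 in H-TBA and 1.490 to 1.496 in L-TBA, and the groups overlapped. The lower ratio in H-TBA was not seen without those 6 genes.

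Per kilobase of mRNA, Rplp1 and Rps14 had the highest levels of the core genes. In L-TBA, mean levels were 612 CPM per kilobase for Rplp1, 563 for Rps14, 452 for Rps9, 400 for Rpl41, 386 for Rps15 and 365 for Rpl4. In H-TBA Rps14 came first, at 746 CPM per kilobase, followed by Rplp1 at 593 and Rps9 at 508. Only Rps14 of these 6 passed the test between the groups, and neighbours such as Rpl41 and Rps15 differed by less than the SD of Rpl41 in L-TBA or H-TBA. These levels depend on the annotated mRNA length, and the lowest value in L-TBA, 47.6 CPM per kilobase for Rps20, comes with a transcript model of 3706 bases. In H-TBA the lowest were Rpl29 at 40.7 and Rps20 at 43.3 CPM per kilobase.

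Most core genes that fell had short coding sequences. Of the 9 core genes with a coding sequence under 300 bases, 6 fell (Rps29, Rpl39, Rps28, Rpl38, Rps27 and Rpl37), 0 rose and the median log2 fold change was -0.38. The other 3, Rpl41 (-0.22), Rps21 (-0.21) and Rpl37a (-0.03), did not pass the test. Among the 15 genes of 300 to 400 bases the median was -0.15 and 1 gene fell, Rpl35a. It was -0.05 in the 20 genes of 400 to 500 bases, where 1 gene rose, 0.07 in the 18 genes of 500 to 700 bases, where 0 genes passed, and 0.10 in the 13 genes of at least 700 bases, where 1 gene rose. The shortest core gene, Rpl41, has 138 coding bases, and the longest, Rpl4, with 1257 coding bases, had a log2 fold change of 0.01 (SE 0.09). Across the 75 core genes, Pearson's r between log2 fold change and log2 coding length was 0.68 and Spearman's rho 0.70. It was 0.68 over the 45 genes of the large subunit with its stalk and 0.72 over the 30 of the small subunit. Genes are not independent replicates, and all share the same 7 libraries, so these values are descriptions. Coding length was taken from the longest annotated coding sequence, which is not always the main form of a gene. This GENCODE measure was chosen after the data had been seen, and gave the strongest relation of the measures used.

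**Figure D2:**
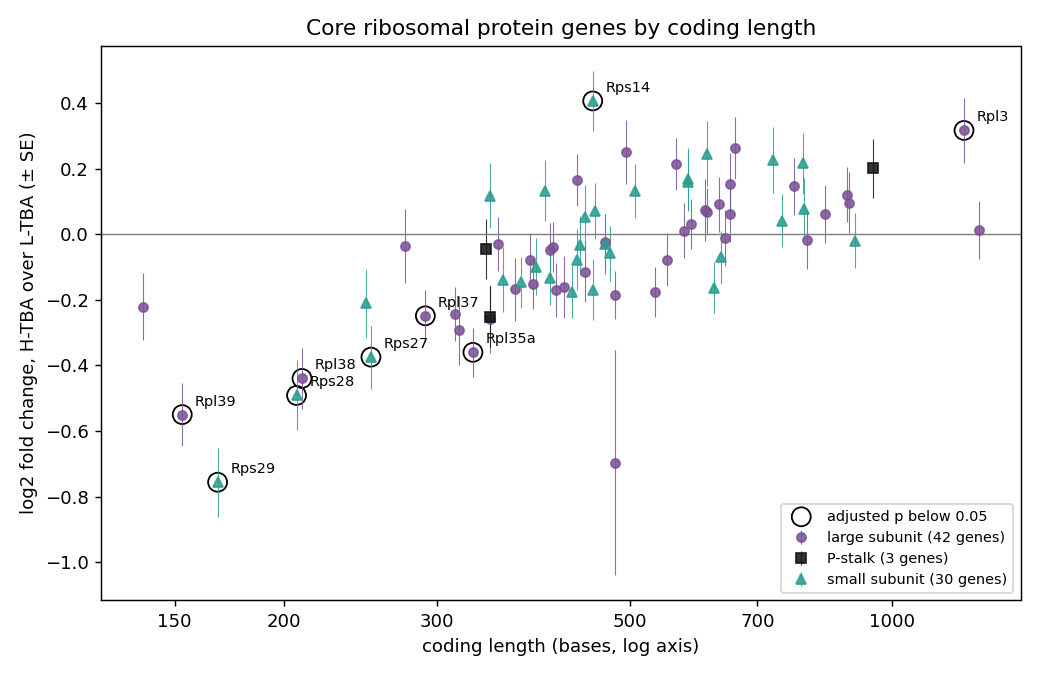
Log2 fold change, H-TBA over L-TBA (vertical axis, bars are ± SE), against coding length in bases (log axis) for the 75 core genes; circles are 42 large subunit genes, squares 3 P-stalk genes, triangles 30 small subunit genes, and open rings mark an adjusted p below 0.05. Both subunits run upward from Rpl39 and Rps29 near 150 bases to Rpl3 above 1000, and the low point with the long bar near 500 bases is Rpl29.

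In each library the short core genes were compared with the long ones. Short core genes (under 300 coding bases) summed to 23.2%, 21.6%, 23.5% and 20.7% of the CPM of long core genes (at least 700 bases) in H-TBA and to 31.4%, 28.7% and 30.8% in L-TBA. The lowest L-TBA library was above the highest H-TBA library by more than the range within either group. Short core genes lay below the L-TBA mean in all 4 H-TBA libraries, by a median log2 difference of -0.22 in H-TBA 3 to -0.45 in H-TBA 4.

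The same direction appeared outside the ribosome. Among 220 other protein-coding genes under 300 coding bases, 62 fell (28.2%) and 22 rose, with a median of -0.18. Among the 10777 of at least 700 bases, 9.57% fell and 15.4% rose, with a median of 0.03. Pearson's r with log2 coding length was 0.12 over 12939 other protein-coding genes. The class medians thus ran from -0.18 to 0.03 outside the ribosome and from -0.38 to 0.10 within its core. The difference between those spans was not tested.

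**Figure D3:**
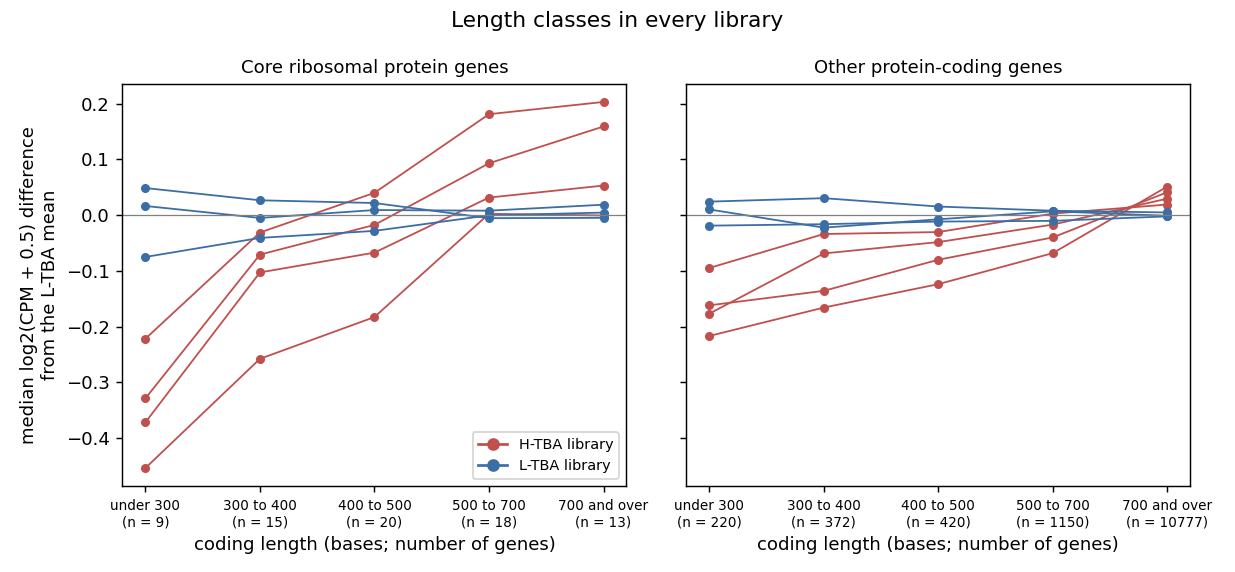
Median difference of log2(CPM + 0.5) from the L-TBA mean (vertical axis) in 5 classes of coding length (horizontal axis, with the number of genes), for core ribosomal protein genes (left) and other protein-coding genes (right); each line is a library. H-TBA lines start below the L-TBA lines in the shortest class of both panels and rise with length. The L-TBA lines lie near 0 because they are measured against their own mean.

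The relation was weaker with the summed exon length of the gene, the planned main measure, which adds exons of minor transcripts. Over the 75 core genes r was 0.36 with exon length and 0.46 with the full mRNA length. In the planned exon length classes, core medians were -0.14 under 500 bases, -0.07 at 500 to 1000 and -0.04 at 1000 to 2000. They were 0.06 at 2000 to 4000 bases and 0.03 above. A further fit corrected for each library's trend with mRNA length, learnt on genes of known length outside the ribosomal protein genes. There the median over all genes moved to -0.11 and the short core genes had a median of -0.07. Rps28, Rpl38, Rps27, Rpl35a, Rpl37, Rpl36al and Rps27rt no longer passed. Rps29 (-0.48, adjusted p = 0.00388), Rpl39 (-0.43, adjusted p = 0.00466) and Rps27l (-0.38, adjusted p = 0.00727) still fell in that edgeR fit, and Rps14 still rose (0.54, adjusted p = 0.00243). Rpl37rt has no mRNA length in the annotation. This fit gave it the median correction of each library, not one for its own length, and its value was -0.55 (adjusted p = 0.00171 by the edgeR test). Over the core genes, r with coding length was 0.39 in this fit, which was chosen after the data had been seen. The planned length fit corrected for exon length instead and left more of the relation in place. There the median over all genes was -0.09 and the short core genes had a median of -0.27. Of those 9 genes 6 still fell, and r with coding length was 0.585.

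Among the paralogs and copies, falls outnumbered rises. Of the 11 tested, 0 rose and 4 fell (36.4%), beside 13.1% and 10.7% over all genes, and the median log2 fold change was -0.17. Among the 4, Rps27rt and Rpl37rt may share reads with their parents Rps27 and Rpl37, which also fell, so they may not be separate calls. Rps27l, a paralog of Rps27 that p53 induces, had 120, 118, 108 and 96.5 CPM in H-TBA against 161, 155 and 159 in L-TBA, with the groups far apart. Its log2 fold change was -0.52 (SE 0.09, adjusted p = 0.0022). Rpl36al, an expressed retrocopy of Rpl36a, had a log2 fold change of -0.34 (SE 0.10, adjusted p = 0.0264), which was lost without H-TBA 2, H-TBA 4, L-TBA 1 or L-TBA 2 (adjusted p 0.0594 to 0.0846). Its parent Rpl36a had -0.29 (SE 0.11, adjusted p = 0.0659). The 2 coding sequences differ at 39 of 321 bases, and no identical stretch is longer than 24 bases. Their first 150 bases, with the 23 that differ in capitals, show how the copy has diverged.
Rpl36a: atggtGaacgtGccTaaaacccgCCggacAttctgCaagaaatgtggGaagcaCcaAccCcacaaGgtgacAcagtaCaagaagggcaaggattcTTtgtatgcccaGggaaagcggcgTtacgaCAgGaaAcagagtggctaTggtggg
Rpl36al: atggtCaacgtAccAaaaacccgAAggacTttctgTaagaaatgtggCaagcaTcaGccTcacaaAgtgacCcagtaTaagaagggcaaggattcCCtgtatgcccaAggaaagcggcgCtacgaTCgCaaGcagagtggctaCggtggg

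Rpl36al took 47.6% ± 1.98 of the counts of the pair in H-TBA (SD, n = 4) and 48.3% ± 1.58 in L-TBA (SD, n = 3). Both genes held about equal counts in liver.

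The other 2 copies that fell match their parents almost base for base. Rps27rt carries the coding sequence of Rps27 without a single difference over 255 bases, and Rpl37rt differs from Rpl37 at 1 of 294 bases, in capitals below. No source used here says how reads matching both a gene and its copy were counted, so the values of these 4 genes are uncertain.
Rps27 and Rps27rt: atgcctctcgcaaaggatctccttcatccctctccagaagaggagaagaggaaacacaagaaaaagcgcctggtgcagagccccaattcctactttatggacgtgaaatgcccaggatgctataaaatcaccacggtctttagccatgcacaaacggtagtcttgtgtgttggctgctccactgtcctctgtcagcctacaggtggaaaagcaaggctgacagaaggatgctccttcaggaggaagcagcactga
Rpl37: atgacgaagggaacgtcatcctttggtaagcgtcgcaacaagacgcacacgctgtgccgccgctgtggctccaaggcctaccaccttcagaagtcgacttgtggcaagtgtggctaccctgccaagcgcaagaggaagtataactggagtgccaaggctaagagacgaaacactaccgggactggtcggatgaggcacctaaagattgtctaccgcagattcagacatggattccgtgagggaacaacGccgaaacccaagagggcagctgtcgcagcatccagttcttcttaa
Rpl37rt: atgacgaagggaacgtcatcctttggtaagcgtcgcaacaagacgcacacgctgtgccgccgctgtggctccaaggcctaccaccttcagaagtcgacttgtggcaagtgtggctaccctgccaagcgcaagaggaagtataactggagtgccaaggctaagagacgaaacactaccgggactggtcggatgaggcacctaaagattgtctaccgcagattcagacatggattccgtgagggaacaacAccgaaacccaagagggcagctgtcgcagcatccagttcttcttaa

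Rps27rt had 23.8 ± 2.88 CPM in H-TBA and 30.0 ± 1.63 in L-TBA, a log2 fold change of -0.33 (SE 0.10, adjusted p = 0.0392) that was lost without any 1 of H-TBA 2, H-TBA 4 and the 3 L-TBA libraries (adjusted p 0.0587 to 0.134). It took 20.3% ± 2.15 of the pair's counts in H-TBA and 19.8% ± 0.47 in L-TBA. Rpl37rt had 21.6 ± 1.56 and 29.1 ± 0.66 CPM, a log2 fold change of -0.44 (SE 0.09, adjusted p = 0.0047), and took 19.7% ± 1.72 and 21.8% ± 0.45 of the counts it shares with Rpl37. For both pairs the shares in the 2 groups overlapped.

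The remaining copies did not pass the test. Rpl7l1 (-0.20, adjusted p = 0.126), Rpl6l (-0.17, adjusted p = 0.15), Rps4l (-0.16, adjusted p = 0.633) and Rps12l1 (-0.14, adjusted p = 0.486) had negative values in the edgeR test. Rpl22l1 and Rps3a3 stood at -0.01, and Rps3a2 at 0.14 (adjusted p = 0.357). Rps12l1, Rps3a2, Rps3a3 and Rpl6l match their parents at 98.7% to 100% of aligned bases, so their counts are uncertain too. The annotated pseudogenes with the -ps suffix held counts equal to 15.7% to 16.2% of those of the 90 genes in every library. Of 129 tested, 9 rose (6.98%) and 16 fell (12.4%), beside 13.1% and 10.7% over all genes, and their median was 0.02.

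**Figure D4:**
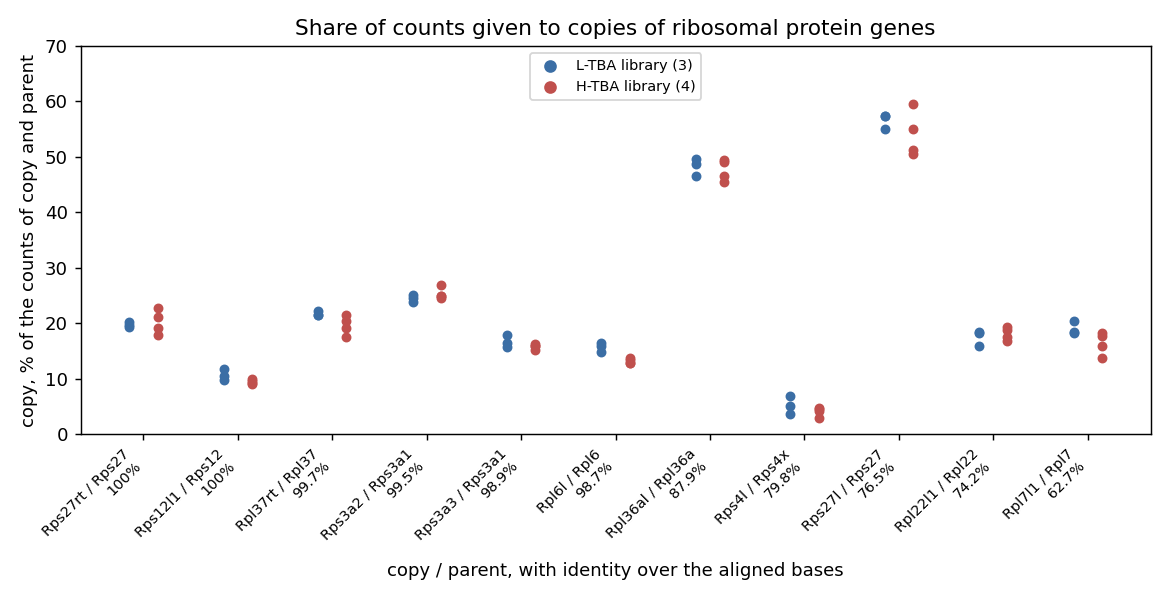
Counts of 11 paralogs and copies as a percentage of the counts of copy and parent together (vertical axis) in each library; names give copy and parent, with the percent identity of their aligned coding bases. The shares of Rpl6l and Rpl7l1 lie lower in all H-TBA than in all L-TBA libraries, and Rpl36al and Rps27l hold about as many counts as their parents.

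Start sites of core genes were searched for the letters of a TOP tract in the window from 30 bases before to 50 bases after the RefSeq start, where the RefSeq table had an entry for 55 of the 75 core genes. CTTTCC on the gene's strand was present in 17 of 55 (30.9%), against 4.36% of 27025 genes. On the opposite strand it was present in 1.82% of core genes and 4.23% of all genes. The longer CTCTTTCC, which contains CTTTCC, was present on the gene's strand in 12.7% of core genes and 0.426% of all, and on the opposite strand in 0 of the 55 and 0.433% of all. CCGGAAG, the letters bound by GABP and other ETS factors, was present on the gene's strand in 16.4% of core genes, 2.59% of all genes and 5.44% of other tested genes. On the opposite strand the shares were 7.27%, 2.63% and 5.02%. For CTTTCC on the gene's strand the share of other tested genes was 4.37%. Core genes with CTTTCC had a median log2 fold change of 0.01, and those without -0.03. The start regions of 3 genes that fell and of Rpl18, which did not pass, are printed from 30 bases before to 20 bases after the RefSeq start (GRCm38.p6), with CTTTCC in capitals, because they show the motif in genes that fell and in one that did not pass.
Rpl35a, chr16:33056452-33056501, plus strand: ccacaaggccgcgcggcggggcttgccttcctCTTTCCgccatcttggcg
Rpl38, chr11:114668550-114668599, plus strand: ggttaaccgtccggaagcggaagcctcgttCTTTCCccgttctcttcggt
Rps27, chr3:90213629-90213678, minus strand: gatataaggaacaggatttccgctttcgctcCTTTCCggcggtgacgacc
Rpl18, chr7:45718041-45718090, plus strand: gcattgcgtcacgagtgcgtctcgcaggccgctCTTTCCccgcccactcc

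Some ribosomal proteins have symbols outside the name pattern. The scaffold protein Rack1 (0.26, adjusted p = 0.069), Rpsa (0.20, adjusted p = 0.168) and Fau (-0.03, adjusted p = 0.845) did not pass the edgeR test.

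Other genes that make, regulate or work with ribosomes were described by 4 lists. The share past the test was 5.13% of translation factors, 13.6% of other TOP mRNAs, 6.32% of biogenesis genes and 21.7% of genes around mTORC1, beside 23.9% of all genes. Among 39 translation factors, 0 rose and 2 fell, the cap-binding protein Eif4e (-0.34, adjusted p = 0.0113) and the initiation factor subunit Eif3a (-0.33, adjusted p = 0.0139), and the median was -0.06. The abundant elongation factors Eef1a1 (-0.08) and Eef2 (0.01) did not pass. Among 22 other mRNAs known for a TOP tract, 1 rose, the filament protein Vim (0.63, adjusted p = 0.00193), and 2 fell, the prolyl isomerase Ppia (-0.30, adjusted p = 0.0344) among them, with a median of 0.01. Tpt1 (-0.08) and Npm1 (0.19) did not pass. Among 95 genes of ribosome biogenesis and RNA polymerase I, 1 rose and 5 fell, with a median of 0.00. Polr1a, the largest subunit of that polymerase, rose (0.38, adjusted p = 0.0144), while Nop10, a small protein of the particles that make pseudouridine (-0.38, adjusted p = 0.0218), Bysl, needed for small subunit maturation (-0.49, adjusted p = 0.0223), and Sbds, which readies the large subunit for joining (-0.28, adjusted p = 0.0275), were among those that fell. Ncl (-0.07) and Fbl (-0.02) did not pass. Of the called genes named from these lists, Vim kept its call when any single library was left out. In the edgeR test the adjusted p became 0.0542 for Eif4e without L-TBA 1, 0.0511 to 0.0582 for Eif3a and 0.0554 to 0.0571 for Polr1a without L-TBA 2 or L-TBA 3. It became 0.0528 to 0.0918 for Bysl without H-TBA 2, L-TBA 1 or L-TBA 2, and 0.0583 to 0.0851 for Nop10 without any library other than H-TBA 1 or L-TBA 1. For Ppia it was 0.0676 to 0.126 and for Sbds 0.0588 to 0.106 without any library other than H-TBA 1. With library totals in place of TMM, the falls of Eif4e, Eif3a, Ppia, Nop10, Bysl and Sbds did not pass, and with either length correction the rise of Polr1a did not pass.

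The list of mTORC1, its inputs, Larp proteins, S6 kinases and Myc partners held the most called genes. Of 46 tested genes 6 rose and 4 fell, with a median of -0.02. Ddit4, an inhibitor of mTORC1, rose from 7.55 ± 0.30 CPM to 14.6 ± 0.22 (log2 fold change 0.95, SE 0.11, adjusted p = 0.000315). Rragd, a Rag GTPase that brings mTORC1 to the lysosome, rose from 30.9 ± 8.26 to 70.7 ± 9.15 CPM (1.19, SE 0.16, adjusted p = 0.00064). Maf1, a repressor of RNA polymerase III, rose (0.41, adjusted p = 0.0124), and that call was lost without L-TBA 1 or L-TBA 2 (adjusted p 0.0505 and 0.06 in edgeR). The kinase Mtor itself fell (-0.34, SE 0.07, adjusted p = 0.00585), as did Lamtor2 of the lysosomal anchor (-0.38, adjusted p = 0.00694) and the RSK kinase Rps6ka1 (-0.51, adjusted p = 0.0215, or 0.0897 without L-TBA 1). With library totals in place of TMM, none of these 3 falls passed. Larp1 (0.03), Eif4ebp1 (-0.22), Rps6kb1 (-0.29) and Myc (0.03) did not pass.

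Among the cell type lists, bile duct markers rose in 8 of 8, hepatocyte markers rose in 2 and fell in 2 of 8, and macrophage markers fell in 2 of 6. Endothelial markers rose in 1 and fell in 2 of 6, stellate cell markers rose in 2 of 6, and 0 of 5 B cell and 0 of 7 T and NK cell markers passed the edgeR test, with 2 and 0 at an unadjusted p under 0.05. Over all tested genes 13.1% rose and 10.7% fell, and lists this short give only a few calls either way. The part of these cell types in the ribosomal protein values was not tested.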

How the data were processed

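For 7 liver libraries, the authors deposited raw counts by Ensembl identifier, not normalized. Tools listed in the submitters' processing notes are TopHat2 2.0.11, CASAVA and DESeq2 1.18.1, with the build mm9 and no roles. How reads were counted, with which annotation and on which strand, is not given in the sources used here, so overlapping or antisense genes and near-identical copies may share counts.

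Symbols, lengths and coding sequences came from GENCODE vM21 and start regions from RefSeq. Both belong to another build than mm9 and were joined to the counts by gene name or identifier. The members and lists were chosen with earlier results of these data known, and 3 copies (Rps12l1, Rpl37rt and Rpl6l) joined once the table had been read. Genes were kept with filterByExpr (minimum count 10, minimum total 15), which left 15249 of 23697 genes with a count, and compared with edgeR 4.0.16 in R 4.3.3 (TMM, quasi-likelihood, group as the only term, Benjamini-Hochberg at 0.05). Exon length was known for 96.3% and mRNA and coding length for 85.5% of tested genes. Genes to name were every member past the threshold, the 4 highest and 4 lowest fold changes and the 3 most abundant genes per length of each subunit, the shortest and longest core gene, every paralog, up to 3 called genes per context list and direction, and 15 context genes whatever their result. Some genes and sequences that these rules select are not reported here. Alternatives used DESeq2 1.42.0, limma 3.58.1, other scalings, filters and offsets, a replicate block and each library left out. On simulated counts for 15249 genes, of which 200 were changed, 76% of 2-fold and 93% of 4-fold changes were recovered. Of the calls, 9.63% were false, more than the threshold of 0.05 allows for. Changes under 2-fold, such as those of all called ribosomal protein genes, were not simulated. Within groups, libraries differed by a chi-square of at least 5.64 per degree of freedom, so no library appears to be present in duplicate. Plots were made in matplotlib 3.10.9.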

Additional observations from a re-analysis of the deposited data

Results flagged for a closer look

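Nop10, a gene of ribosome biogenesis, stood at 33.3 CPM in H-TBA 1 and at 26.2 to 26.5 CPM in the other H-TBA libraries, a gap of 0.961 of the group's range. It was the only 1 of 62 groups of 4 libraries tested that had such a sample, where chance gives about 5% of groups.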

How the results depend on the processing

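No named gene that passed in the reported fit or in an alternative differed in direction between them, but both subunit medians changed sign, as given below. The counts of ribosomal protein genes that rose and fell, 2 and 11, were within 1.5 times of these under DESeq2, its size factors in edgeR, limma-voom, no filter and scaling without the members or without the 20 most abundant genes. Other settings moved them: 16 and 4 with library totals, 1 and 22 with a GC offset and 5 and 5 with an mRNA length offset. With an exon length offset 1 rose and 16 fell, and with a filter of 50 counts 4 rose and 9 fell. Leaving out each library gave 1 to 8 that rose and 7 to 13 that fell. The median of the large subunit moved from -0.03 to -0.10 (GC), 0.127 (library totals) and 0.0485 (mRNA length), and that of the small subunit from -0.03 to -0.10, 0.127 and 0.0619. With a library left out they were -0.0549 to 0.0136 and -0.071 to 0.00527. The difference between the subunit medians was -0.0396 with the exon length offset and -0.0187 to 0.0197 with a library left out. The 21 called genes of the context lists became 33 and 37 with the exon and mRNA length offsets and 9 to 29 with a library left out. Pearson's r with exon length, 0.36, became 0.45 (GC), -0.0143 (exon length offset) and 0.11 (mRNA length offset). With coding length as the measure it was 0.68 and with mRNA length 0.46. The ratio of large to small subunit counts, lower by 0.037 in H-TBA, differed by 0.00483 without the 3 most abundant genes of each subunit. For the 62 named genes under the alternatives, 973 values kept their direction and side of the threshold, 107 no longer passed, 37 newly passed, and 60 changed sign without passing under either setting. The cause of these moves was not tested.

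The replicate numbers do not pair the libraries: deviations of same-numbered libraries correlated at -0.103, -0.0589 and -0.0627. With the replicate block, 0 genes rose, 7 fell and 5 context genes passed in edgeR, and the medians of the large and small subunit were 0.00802 and 0.00217. Coding length from a protein table was not run because no such table was used here, and GENCODE coding length stood in for it, chosen after the data had been seen, as was the mRNA length offset. Rpl3l, Rpl39l and Rpl10l had too few counts to be tested.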
